A study of Mus musculus with 24 samples.

Results

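The 57 genes described here lie on mouse chromosome 9 within 10 Mb of Cyp1a1, and they were followed in bone marrow of mice with and without that gene. They were listed by position, with earlier results of these data known, and 156 other tested genes lie in the same window. Each was read by its brightest probe out of 100 probes that carry its name or an older alias. All 57 passed the filter on low signal, among 24364 genes tested in all, and 97 of the 100 probes passed it on their own, among 35682. By the positions printed in the array files, which name no genome build, their brightest probes ran from 3.16 Mb before the Cyp1a1 probe (Cib2) to 6.60 Mb after it (Dis3l).

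Cyp1a1 encodes a cytochrome P450 that oxidises polycyclic aromatic hydrocarbons and is switched on by the aryl hydrocarbon receptor; Cyp1b1, on chromosome 17, encodes a related enzyme. Genes close to each other on a chromosome are inherited together more often than distant ones, which makes the neighbours of a targeted gene a set of interest in any knockout. The neighbours of Cyp1a1 share a location, not a pathway: they range from mitochondrial enzymes (Idh3a, Etfa) and kinases (Csk, Map2k1) to transcription regulators (Pml, Sin3a, Smad3) and ubiquitin ligases (Arih1).

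Each of the 24 two-colour Agilent arrays compared 1 marrow sample, labelled with Cy3, against a common reference of pooled marrow from wild-type mice given oil, labelled with Cy5, and no array had its dyes swapped. The labels give strain C57BL/6j, female mice and an age of 6 weeks for every sample, name 9 samples pooled behind each, and do not give the stem cell strain, the number of backcrosses or the deleted parts of either gene. In all, 4 groups lacked Cyp1a1: Cyp1a1-null mice given olive oil (3 arrays), Cyp1a1-null mice 12 h after benzo(a)pyrene (BP; 3 arrays), mice null for both Cyp1a1 and Cyp1b1 given oil (1 array), and these double-null mice 12 h after BP (2 arrays). The other 6 groups carried it: Cyp1b1-null mice 12 h after 7,12-dimethylbenz(a)anthracene (DMBA; 2 arrays) or given oil (2 arrays), and wild-type (WT) mice 6 h after BP (2 arrays), 12 h after DMBA (3 arrays), 12 h after TCDD (the dioxin 2,3,7,8-tetrachlorodibenzo-p-dioxin; 3 arrays) or given oil (3 arrays). All agents were injected intraperitoneally, with 50 mg/kg as the stated dose. Because replicate arrays are not stated to come from separate cohorts of mice, p-values measure only the spread between these pools. Below, values are log2 ratios of sample over reference, and a gene or probe is said to have passed at a limma adjusted p under 0.05, adjusted over all genes or probes.

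The Cyp1a1 probe was not well above background on any of the 9 arrays labelled Cyp1a1-null or double-null, where its log2 ratio ran from -0.43 to 0.11. It was above background on 10 of the 15 others. In WT marrow it read 1.71 and 1.94 after BP, 1.93, 1.76 and 1.91 after DMBA, and 0.18, 0.15 and 1.55 after TCDD. After DMBA in Cyp1b1-null marrow it read only 0.23 and 0.04, so it was not raised on every treated array. The brighter Cyp1b1 probe was not low in the groups labelled as lacking Cyp1b1: it averaged 1.18 in the oil groups without Cyp1b1 and -0.01 in those with it, a log2 difference of 1.19 ± 0.18 (SE, adjusted p = 0.00256). The labels do not say whether this probe lies in the deleted part, so it does not check them, and "Cyp1b1-null" below means arrays so labelled. Markers of neutrophils, erythroid cells and B cells were bright on all arrays (median Cy3 percentiles of at least 99.3, 85.0 and 75.1). In WT oil replicate 1, 7 liver genes had a median percentile of 94.4, against at most 38.3 elsewhere, and the SD of its log ratios was 1.26. Results that rest on that array are given with and without it, except where stated. Arrays sat on 10 slides, and pairs of arrays on 1 slide correlated more (mean r = 0.694 over 23 pairs) than pairs on different slides (0.214 over 253 pairs). All double-null arrays shared a slide, as did the Cyp1a1-null oil arrays, so slide and genotype largely cannot be told apart. Slide 7 alone held both sides: Cyp1a1-null BP replicates 1 and 2 and both Cyp1b1-null oil arrays.

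The sequences below are those of the Arih1, Glce and Anp32a probes. Each is the first 30 of the 60 bases of a probe, 5′ to 3′ along the transcript. They run in order from the 5′ side of each gene. Capitals mark probes that passed when the 4 Cyp1a1-deficient groups were set against the 6 others. Arih1 encodes an E3 ubiquitin ligase that works with cullin ligases, Glce the epimerase that converts glucuronic to iduronic acid in heparan sulfate, and Anp32a an acidic nuclear phosphoprotein that binds histones and inhibits phosphatase 2A.
Arih1 probe A_52_P286543 (minus strand, chr9:59241147-59242705): gaaagtccaagataagtacagatactgtga
Arih1 probe A_52_P556290 (minus strand, chr9:59240462-59240521): agaggacaacacagtatttttcaaaattgt
Arih1 probe A_51_P196760 (minus strand, chr9:59239494-59239553): taagactgtcagttttatataagagtgcag
Arih1 probe A_52_P515407 (minus strand, chr9:59238357-59238416): CAAAGCTCAGGAGACATACCATAGTGGTAA
Arih1 probe A_52_P67444 (minus strand, chr9:59236404-59236463): TTTAAAGAATGTGCATCTGTTAGTTTTTCA
Glce probe A_52_P673978 (minus strand, chr9:61928749-61928808): TTATAGTCTTACTAAAATGTTCTTCGAAGT
Glce probe A_51_P502545 (minus strand, chr9:61908154-61908213): aaagccgtgttcatgaataaacatgactgg
Glce probe A_51_P337543 (minus strand, chr9:61905257-61905316): ttgtacatgtggggtatatgccatgtgtca
Anp32a probe A_51_P499755 (plus strand, chr9:62219932-62219991): CTTAAGCATCTAAATTTAAGTGGCAACAAA
Anp32a probe A_51_P399071 (plus strand, chr9:62226175-62226234): ACTGTTCTATTTGGTTCTGTAAAATATTAG

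The differences described first are those of single probes of Arih1 and Glce and of both probes of Anp32a. Of the 97 tested probes of the 57 genes, 8 passed (2 higher, 6 lower), against 2.63% of all probes; 1 of the 8, a Glce probe, met the filter on low signal through the Cyp1a1-deficient arrays. Of the 97, 22 passed without WT oil replicate 1 (7 higher, 15 lower), against 12.4%. Arih1's most 3′ probe, A_52_P67444, was higher without Cyp1a1: its log2 ratios were 0.46 at the lowest, 0.93 at the median and 1.17 at the highest over the 9 Cyp1a1-deficient arrays, and -0.23, 0.02 and 0.33 over the 15 others. The 2 sides did not overlap, although they did with no background subtraction, with the scanner's processed signals and with Cy3 alone. By group, the values were 0.60, 0.93 and 1.13 in Cyp1a1-null oil, 0.46, 0.72 and 0.95 in Cyp1a1-null BP, 1.17 in double-null oil and 1.00 and 0.83 in double-null BP, against 0.14 and -0.16 in Cyp1b1-null oil and -0.07, 0.33 and -0.23 in WT oil. The log2 difference was 0.88 ± 0.09 (SE, adjusted p = 5.75e-05), and under oil alone it was 1.03 (adjusted p = 0.00234). It passed whichever of the 23 arrays other than the single double-null oil array was left out (0.85 to 0.92).

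The next Arih1 probe, A_52_P515407, lies 1953 bases upstream, is the brightest of the 5 and was lower without Cyp1a1. It read -0.59, -0.38 and -0.02 (lowest, median, highest) over the Cyp1a1-deficient arrays and -0.34, 0.19 and 0.74 over the others, so the sides overlapped. Its log2 difference was -0.53 ± 0.12 (SE, adjusted p = 0.0302), and it passed in 15 of 23 fits that left out 1 array, with adjusted p up to 0.0648. The other 3 Arih1 probes, still further upstream, did not pass, with log2 differences of -0.07, 0.04 and 0.15. One gene thus gave a higher, a lower and 3 small readings depending on the probe, and Arih1 was the 1 member out of the 29 with at least 2 tested probes whose probes passed in both directions. In the other 28 the probes did not pass in opposite directions, and the median gap between probes of a gene, over all 29, was 0.16. Of the 29, Arih1 included, 13 had probe differences of both signs. The averaged signal of the 5 Arih1 probes had a log2 difference of 0.16 under oil (adjusted p = 0.496), against -0.48 for the brightest probe (adjusted p = 0.309).

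**Figure D1:**
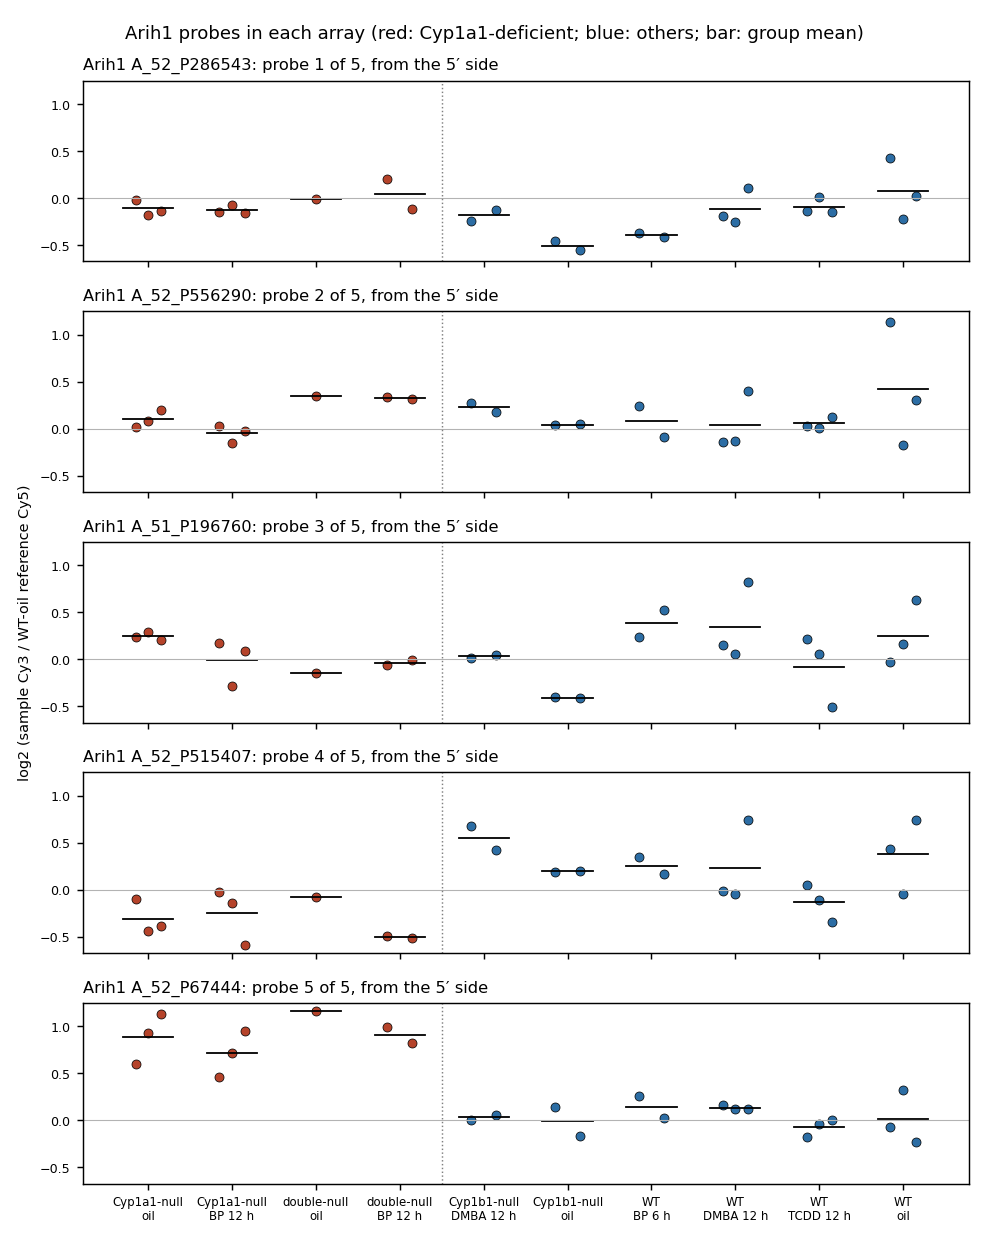
Log2 ratio of sample over WT oil reference for the 5 Arih1 probes, 1 panel each from the 5′ to the 3′ side, with 1 point per array, grouped by genotype and treatment, and a bar at each group mean (red, Cyp1a1-deficient; blue, the others). In the lowest panel every Cyp1a1-deficient array lies above every other array, and in the next-to-last panel, A_52_P515407, all 9 read below 0.

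Glce also differed between probes, though not with calls in opposite directions. Probe A_52_P673978, which lies 23492 bases upstream of the most 3′ Glce probe and was assigned to Glce by the symbol in the array files, read 0.31, 0.93 and 1.29 (lowest, median, highest) over the 9 Cyp1a1-deficient arrays and -0.13, 0.01 and 0.14 over the 15 others. No array of one side entered the range of the other. The probe was well above background on all 9 Cyp1a1-deficient arrays and on 1 of the 15 others, so its difference is a lower bound: Cy3 signal was at least 1.47-fold higher in Cyp1a1-null oil (3 arrays above background) than in WT oil (0 of 3), and at least 1.61-fold higher than in Cyp1b1-null oil (0 of 2). Since the probe met the filter on low signal only through the arrays on which it was high, it had to differ. Its capitals above and its place in the count of probes that passed are therefore no support for a difference. No p-value of it is given. The other 2 Glce probes had log2 differences over all groups of -0.08 (brightest) and 0.08 and did not pass (adjusted p = 0.793 and 0.7).

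Anp32a was lower without Cyp1a1 on both probes. The brightest, A_51_P399071, read -0.93, -0.76 and -0.16 (lowest, median, highest) over the Cyp1a1-deficient arrays and -0.39, 0.23 and 0.85 over the others. Its ranges overlapped slightly: WT oil replicate 1, at -0.39, and WT TCDD replicate 3, at -0.28, fell among the Cyp1a1-deficient values. The log2 difference was -0.96 ± 0.15 (SE, adjusted p = 0.00248), it was -1.01 without WT oil replicate 1, and it passed whichever of 23 arrays was left out. Under oil alone it was -0.84 ± 0.24 and missed the threshold (adjusted p = 0.116), but it passed without WT oil replicate 1 (adjusted p = 0.0132). The second probe, A_51_P499755, had a log2 difference of -1.12 ± 0.26 (adjusted p = 0.0308) with a wide spread: it was between -1.67 and -0.92 on 5 of the 6 BP or double-null arrays, and 0.13 on Cyp1a1-null BP replicate 3 and -0.32, 0.37 and 0.06 on Cyp1a1-null oil arrays. The 4 arrays that were not low are the 4 read with the later Feature Extraction version, all on 1 slide and all Cyp1a1-null. With the version as a term the log2 difference was -1.70 (adjusted p = 0.00237), and with slide as a random block it was -1.45 and did not pass (adjusted p = 1).

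**Figure D2:**
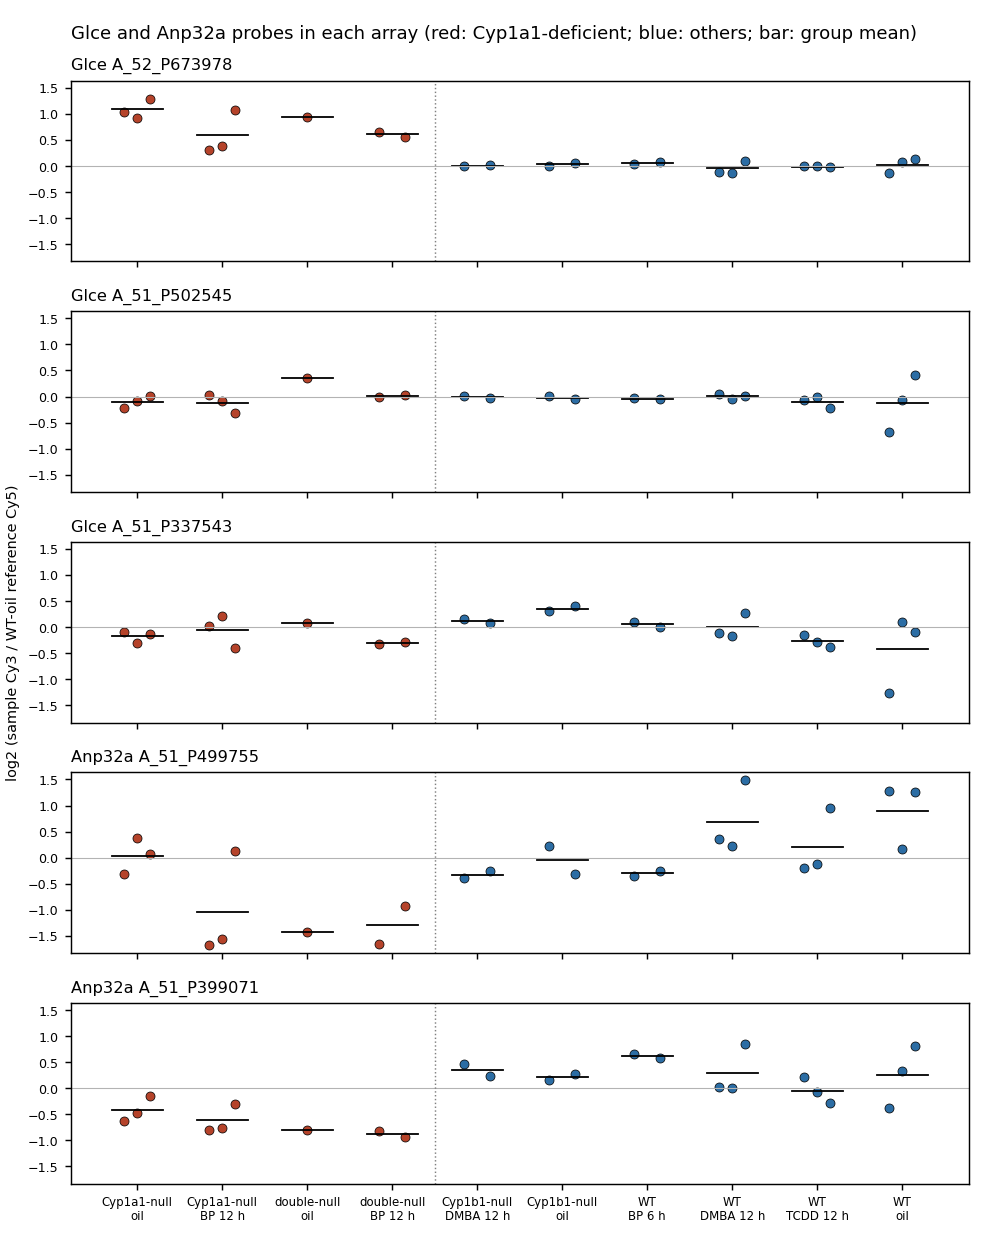
Log2 ratio of sample over WT-oil reference for the 3 Glce probes and the 2 Anp32a probes, 1 point per array with a bar at each group mean (red, Cyp1a1-deficient; blue, the others). The top Glce panel separates the genotypes with no overlap while the lower Glce panels do not, and the lowest panel shows Anp32a A_51_P399071 below -0.15 on all 9 Cyp1a1-deficient arrays. The top Glce probe met the filter on low signal only through the Cyp1a1-deficient arrays, so its separation is no support for a difference.

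Within slide 7, Cyp1a1-null BP minus Cyp1b1-null oil was 0.60 for Arih1 A_52_P67444 (means 0.59 and -0.01) and -0.99 for Anp32a A_51_P399071 (-0.78 and 0.21). Glce A_52_P673978 averaged 0.35 on the Cyp1a1-null BP arrays, and on both Cyp1b1-null oil arrays it was not well above background. These 2 pairs of arrays differ in treatment and in both genotypes as well, and no test was made of 2 against 2. With slide as a random block, neither the Arih1 nor the Anp32a probe passed with all arrays (log2 differences 0.85 and -1.05, adjusted p = 1 for each); without WT oil replicate 1 both passed under that block (adjusted p = 0.0189 and 0.005). The authors' deposited table lists log2 values for Cyp1a1-null oil and for double-null oil, each against WT oil. Its signs were the same for these probes: 0.87 and 1.29 for Arih1 A_52_P67444, -0.78 and -0.76 for Arih1 A_52_P515407, 1.69 and 1.91 for Glce A_52_P673978, and -1.25 and -1.82 for Anp32a A_51_P399071. For Anp32a A_51_P499755, which was not low on the Cyp1a1-null oil arrays here, it lists -1.28 and -2.93. For Arih1 A_51_P196760, which differed little here, it lists -0.55 and -1.05. That table was made from the same arrays.

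Complete separation of the 9 Cyp1a1-deficient arrays from the 15 others was rare. Over the 35266 tested probes with a value on every array, 19 (0.0539%) separated in this way, and 2 of the 97 probes of the 57 genes did, both higher, namely those of Arih1 and Glce. The Glce probe was above background on 1 of the 15 other arrays, so it lends the count no independent support. Of the 57 brightest probes, 0 did, against 0.054% of all genes read that way. On chromosome 9 within 10 Mb of the Cyp1a1 probe, 5 of 430 probes (1.16%) separated, a count that includes the Glce probe. From 10 to 20 Mb, 2 of 395 (0.506%) did, and beyond 20 Mb, 0 of 1192. Among probes on other chromosomes or with no position, 12 of 33249 (0.0361%) separated. The other 3 probes in the window, chosen after their values were seen, belong to Ppp2r1b (a scaffold subunit of phosphatase 2A; 0.64 ± 0.06), 9830163H01Rik (0.95 ± 0.07) and an unnamed transcript (-2.66 ± 0.25), and the 2 at 12.85 Mb both read 4930520O04Rik (-2.62 and -1.94). When the 7 arrays labelled as lacking Cyp1b1 were set against the 17 others, 30 probes separated in all (0.0851%): 3 of the 232 within 10 Mb of Cyp1b1 on chromosome 17, and 0 of the 430 around Cyp1a1. This rule was adopted after the values were seen, and the shares are given as a description.

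**Figure D3:**
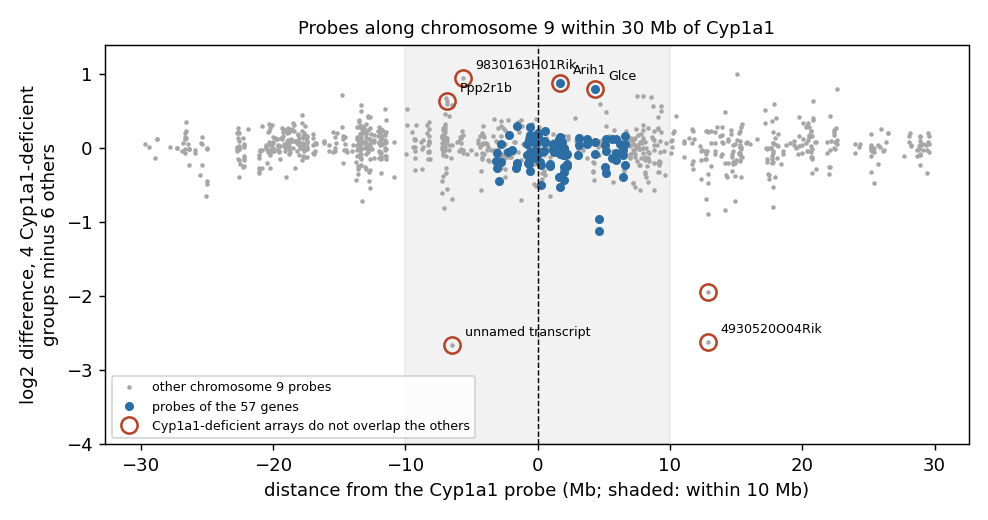
Log2 difference between the 4 Cyp1a1-deficient groups and the 6 others for each tested probe within 30 Mb of Cyp1a1, plotted by distance from the Cyp1a1 probe in Mb (blue, probes of the 57 genes; grey, other chromosome 9 probes; red rings, probes whose Cyp1a1-deficient arrays do not overlap the rest). Most blue points lie near 0, with Arih1 and Glce ringed above and 2 unringed Anp32a points near -1. The ringed Glce probe met the filter on low signal only through the Cyp1a1-deficient arrays.

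With each gene read by its brightest probe, as the 57 were defined, 5 of the 57 passed between all Cyp1a1-deficient groups and all others, all of them lower, against 2.59% of all genes in either direction and 1.4% in the lower one. These were Anp32a (-0.96), Arih1 (-0.53), Snapc5 (-0.38), Idh3a (-0.27) and Rcn2 (-0.27). No member passed as higher, and the median over the 57 was -0.06, against 0.02 over all genes. With slide as a random block, 0 of the 57 and 0 of all genes passed in limma (2 of 57 had an unadjusted p under 0.05, against 2.03% of all genes), and without WT oil replicate 1 Anp32a alone passed under that block (adjusted p = 0.00573). Without WT oil replicate 1 and with no block, 12 passed (4 higher, 8 lower), and 13.1% of all genes did. In the same comparison with all arrays, 2 of 6 macrophage and 2 of 4 platelet markers passed, and none of the neutrophil, erythroid, B cell or T cell markers; their part in the members' values was not tested. The share among the 57 was 8.77% with all arrays, among 156 other genes within 10 Mb it was 9.62% and among 838 chromosome 9 genes farther away 2.86%. These shares were 21.1%, 19.9% and 13.2% without WT oil replicate 1. The treatments were unequally spread over the genotypes in this comparison, since BP at 12 h was given to Cyp1a1-deficient mice alone. The other genes in the window with the smallest adjusted p were Tpm1 (0.57 ± 0.07), Dapk2 (0.69 ± 0.09), Mtfmt (-0.56 ± 0.09), Atm (-0.56 ± 0.10) and Ppp2r1b (0.60 ± 0.11).

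Of the 5 that passed, 2 were in the list of 7 transcription and chromatin genes, namely Anp32a and Snapc5. The list was drawn up with earlier results of these data known, and Smad3 was placed outside it. This count is therefore no result about transcription genes. Snapc5 encodes a small subunit of the complex that starts transcription of small nuclear RNA genes. Snapc5 read -0.49, -0.40 and -0.05 (lowest, median, highest) over the Cyp1a1-deficient arrays and -0.35, 0.07 and 0.77 over the others, with overlapping ranges. The log2 difference was -0.38 ± 0.08 (adjusted p = 0.0143). It passed in all 23 fits that left out 1 array (the double-null oil array was not left out), with adjusted p up to 0.041. Snapc5 was high in Cyp1b1-null oil (0.77 and 0.68), against -0.41, -0.49 and -0.45 in Cyp1a1-null oil, and this pair differed by -1.18 ± 0.15 (adjusted p = 0.00349); both calls ended with slide as a random block (adjusted p = 1 and 0.0903). WT oil arrays, at 0.14, -0.06 and -0.35, lay between them. The regulators Sin3a (histone deacetylase scaffold), Pml (nuclear body scaffold), Pias1 and Tle3 (corepressors) and Arid3b did not pass with all arrays, and Sin3a passed without WT oil replicate 1 (0.24, adjusted p = 0.0431), on which it read 1.33.

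Among the 11 genes listed under metabolism and lysosomes, most of them enzymes and Crabp1 a carrier, Idh3a passed over all Cyp1a1-deficient groups. Idh3a encodes the catalytic subunit of mitochondrial isocitrate dehydrogenase. It was lowest in Cyp1a1-null marrow, with -0.80, -0.90 and -1.03 under oil and -1.18, -1.06 and -1.13 after BP. Double-null marrow, which also lacks Cyp1a1, read -0.63 under oil and -0.65 and -0.74 after BP, inside the range of the 15 other arrays (-0.97 to -0.22). Against WT oil (-0.39, -0.51 and -0.22), Cyp1a1-null oil was lower by -0.53 ± 0.11 on the log2 scale (adjusted p = 0.0161) with no overlap; it was the 1 member of 57 that passed there, against 3.6% of all genes. Without WT oil replicate 1, 8 of 57 passed (1 higher, 7 lower), and 7.49% of all genes did: Pstpip1 was higher (0.82), and Etfa (-0.69), Rcn2 (-0.54), Idh3a (-0.54), Anp32a (-0.99), Imp3 (-0.50), Tipin (-0.43) and Myo9a (-0.59) were lower. Averaged over all Cyp1a1-deficient groups, the Idh3a difference was -0.27 ± 0.06 (adjusted p = 0.0223), and its adjusted p was above 0.05 in 3 of 23 fits that left out 1 array, reaching 0.0561. With slide as a random block neither Idh3a difference passed (adjusted p = 0.748 against WT oil and 1 over all groups). Hexa (lysosomal hexosaminidase), Pkm (pyruvate kinase), Mpi (mannose phosphate isomerase) and the rest of the 11 did not pass over all Cyp1a1-deficient groups. This held with and without WT oil replicate 1.

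Of the 13 membrane, trafficking and cytoskeleton genes, Rcn2 passed, an endoplasmic reticulum calcium-binding protein. Its values were -0.54, -0.48 and -0.15 (lowest, median, highest) over the Cyp1a1-deficient arrays and -0.52, -0.06 and 0.19 over the others. Cyp1b1-null oil, at -0.52 and -0.35, was as low as Cyp1a1-null oil, at -0.48, -0.49 and -0.51. The log2 difference of -0.27 ± 0.07 (adjusted p = 0.0427) remained past the threshold in 7 of 23 fits that left out 1 array and reached an adjusted p of 0.0982 in another. It did not pass with slide as a random block (adjusted p = 1). Among the 11 signalling genes none passed with all arrays; without WT oil replicate 1, Pstpip1 (an adaptor of the haematopoietic cytoskeleton) and Clk3 (a splicing kinase) were higher (0.47 and 0.29, adjusted p = 0.00199 and 0.00433), and Sema7a, a membrane-anchored semaphorin, and Ptpn9, a phosphatase, were lower (-0.39 and -0.25, adjusted p = 0.00205 and 0.044). On WT oil replicate 1 itself, Pstpip1 read 2.79, Clk3 2.01 and Sema7a 1.61. Scaper (0.19) and, in the ubiquitin group, Ubl7 (-0.27) were the other members that passed without that array (adjusted p = 0.0368 and 0.0118). Over all Cyp1a1-deficient groups, none of the 5 RNA handling genes (Imp3, Snupn, Edc3, Larp6, Dis3l) passed, with or without that array. Nor did any of the 4 DNA repair, replication and chromosome segregation genes (Neil1, Parp6, Tipin, Zwilch) in that comparison.

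**Figure D4:**
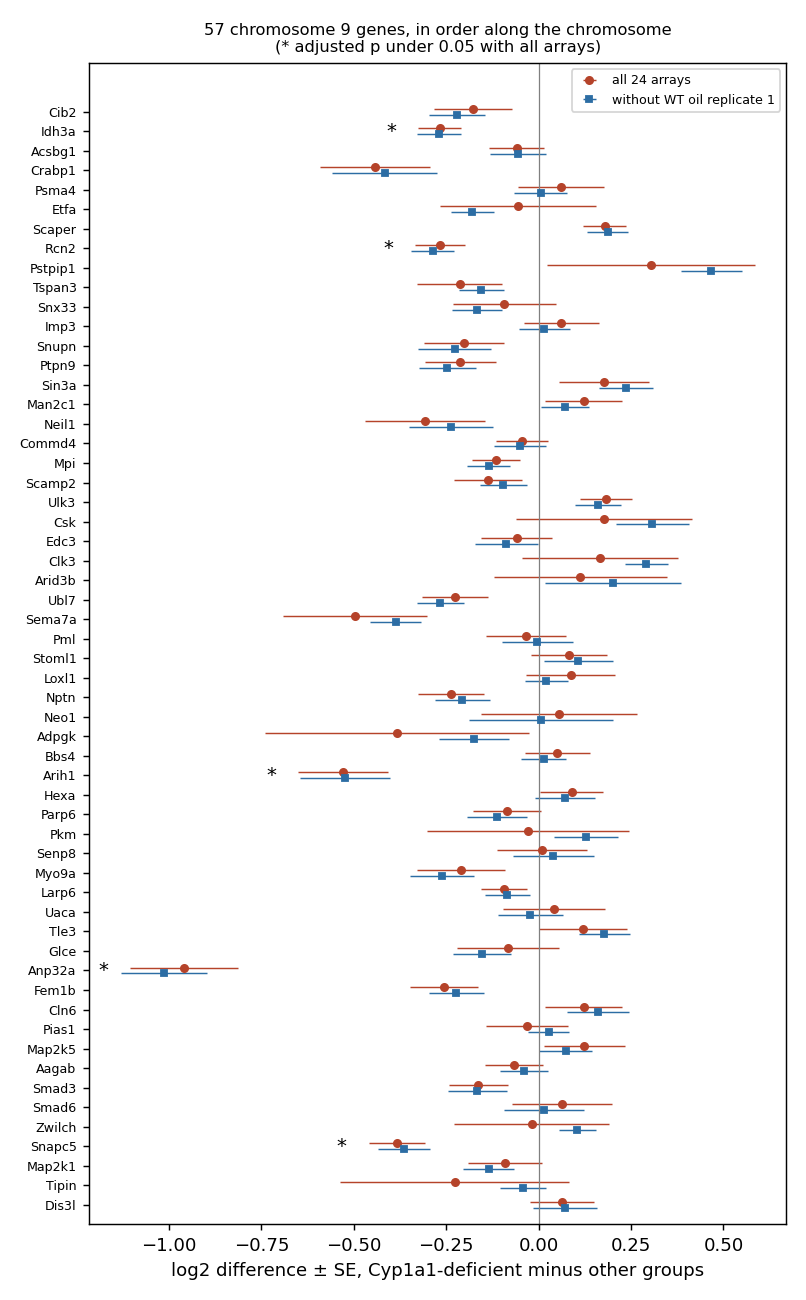
Log2 difference ± SE between Cyp1a1-deficient and other groups for the 57 genes in order along the chromosome (red circles, all 24 arrays; blue squares, without WT oil replicate 1; asterisks, adjusted p under 0.05 with all arrays). Anp32a lies furthest from 0 at -0.96, and the 5 starred genes all lie below 0.

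Under oil alone, with Cyp1a1 loss averaged over both Cyp1b1 genotypes, 2 of the 57 passed, both lower, against 0.513% of all genes in either direction and 0.267% in the lower one. Snapc5 differed by -0.63 ± 0.12 (adjusted p = 0.0357), but by 0.024 with Cy3 alone (adjusted p = 0.985). Crabp1, a cytosolic carrier of retinoic acid, differed by -1.54 ± 0.24 (adjusted p = 0.00655), and this rests on the single double-null oil array, where it read -2.34 and its Cy3 signal was not well above background. In Cyp1a1-null oil Crabp1 read 0.60, 0.32 and -0.19, against 0.99 and 1.19 in Cyp1b1-null oil and 0.21, -0.61 and 0.06 in WT oil. With slide as a random block neither passed (adjusted p = 0.9 for each). Without WT oil replicate 1 and with no block, Anp32a joined them, for 3 of 57 and 3.2% of all genes. Markers of blood cells were read in the same comparison with all arrays. Their median log2 differences were -0.99 over 9 neutrophil genes, -0.85 over 8 B cell genes and -0.38 over 4 T cell genes. They were -0.23 over 7 erythroid genes, -0.13 over 6 macrophage genes and 0.25 over 4 platelet genes. These medians rest in part on WT oil replicate 1, and they are not given without it. Of the markers, 1 macrophage gene passed, and no neutrophil, B cell, T cell, erythroid or platelet gene did. The medians are therefore no result about a loss of those cell types. The part of the markers' cell types in the members' values was not tested. In whole marrow, fewer cells of a type and less RNA per cell cannot be told apart. Of the rest, given as values that did not pass, the 10 lowest with all arrays ran from Tipin (-0.81 ± 0.50), Adpgk (-0.76 ± 0.58), Sema7a, Fem1b, Nptn, Arih1, Pkm, Arid3b and Neil1 to Neo1 (-0.38 ± 0.34). The 10 highest ran from Commd4 (0.20 ± 0.11), Etfa, Imp3, Loxl1, Scaper, Man2c1, Uaca, Ulk3 and Snx33 to Map2k5 (0.35 ± 0.18). Both orders rest in part on WT oil replicate 1, and they are not given without it. On that array Tipin read 3.34, against 0.07 and -0.06 on the other WT oil arrays. Adpgk read 3.85 there, against -0.03 and 0.18, and Etfa -2.41, against -0.17 and -0.20.

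Against Cyp1b1-null oil, Cyp1a1-null oil had 2 members past the threshold, both lower (5.04% of all genes passed). Besides Snapc5 this was Nptn, neuroplastin, an immunoglobulin-family adhesion protein and calcium pump partner. Nptn read -0.36, 0.09 and 0.10 in Cyp1a1-null oil, against 0.99 and 1.04 in Cyp1b1-null oil (-1.07 ± 0.18, adjusted p = 0.0106). The groups lie on separate slides, and with slide as a random block neither gene passed (adjusted p = 0.121 for Nptn and 0.0903 for Snapc5), while without WT oil replicate 1 both passed under it (adjusted p = 0.035 and 0.0177). Nptn was as high in Cyp1b1-null marrow after DMBA, at 1.03 and 1.00, but 0.45 in double-null oil and 0.20 and 0.25 in double-null BP, which also carry the Cyp1b1-null label. Over all Cyp1a1-deficient groups against all others, its 2 probes differed by -0.24 and -0.22 and neither passed. Without WT oil replicate 1 and with no block, the count against Cyp1b1-null oil was 19 of 57 (8 higher, 11 lower), and 21.8% of all genes passed. The members with the smallest adjusted p there were Snapc5, Nptn, Tipin (-0.66), Map2k5 (0.62), Scamp2 (0.48), Arid3b (-1.40), Smad6 (-0.81) and Snx33 (0.50).

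Loss of Cyp1b1 under oil, averaged over both Cyp1a1 genotypes, had 4 of the 57 past the threshold, and 4.76% of all genes passed. With slide as a random block, 0 of the 57 and 0.0411% of all genes did in limma. An unadjusted p under 0.05 was reached there by 5 members (8.77%), against 6.94% of all genes. Under that block without WT oil replicate 1, 0 of the 57 and 0.69% of all genes passed. There 15 members (26.3%) had an unadjusted p under 0.05, against 19.2% of all genes. Snapc5 (0.55 ± 0.12) and Nptn (0.55 ± 0.15) were higher, and Neil1, a DNA glycosylase that removes oxidised bases (-1.05 ± 0.26), and Scamp2, a secretory carrier membrane protein (-0.58 ± 0.15), were lower in arrays labelled as lacking Cyp1b1 (adjusted p = 0.0261, 0.0409, 0.0344 and 0.0373). Neil1 read -0.76 in double-null oil and -0.40 and -0.22 in Cyp1b1-null oil, against 0.75, 0.13 and 0.03 in Cyp1a1-null oil and 1.58, 0.34 and 0.29 in WT oil, with no overlap. After BP, double-null marrow gave -0.65 and -0.08 for Neil1 and Cyp1a1-null marrow 0.94, 0.75 and 0.41 (-1.07 ± 0.33, adjusted p = 0.199). No member passed in limma in that BP comparison, in which 0.172% of all genes did and 12 of 57 members (21.1%) had an unadjusted p under 0.05, as did 11.5% of all genes. With WT oil replicate 1 left out of the fit, Neil1 and Scaper passed (adjusted p = 0.0151 and 0.04), as did 3.65% of all genes. Without that array the count for Cyp1b1 loss was 15 (6 higher, 9 lower) and 24.4% of all genes passed.

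In limma with all arrays, the treatments moved 0 of the 57 genes past the threshold. In WT marrow 0.694% of all genes passed 6 h after BP, 0% 12 h after DMBA and 2.15% 12 h after TCDD; DMBA in Cyp1b1-null mice gave 0.0246% and BP in Cyp1a1-null mice 0.0328%. An unadjusted p under 0.05 was reached by 13, 12, 16, 6 and 4 members in the same order (22.8%, 21.1%, 28.1%, 10.5% and 7.02% of the 57), against 15.4%, 12.3%, 21.3%, 14.6% and 15.2% of all genes. The median over the 57 was 0.07, 0.02, -0.06, 0.07 and 0.01. Without WT oil replicate 1, the members that passed after BP in WT marrow were Idh3a (-0.47), Psma4, a proteasome subunit (-0.62), Etfa, an electron carrier of fatty acid oxidation (-0.67), and Sema7a (0.63), where 3.76% of all genes passed. Clk3 (0.42) and Snapc5 (0.51) passed after TCDD (6.09%), and Rcn2 (0.43), Commd4 (0.55), Scamp2 (0.68) and Snapc5 (-0.74) after DMBA in Cyp1b1-null mice (7.42%). None passed after DMBA in WT mice or after BP in Cyp1a1-null mice (0.0944% and 0.156%), with unadjusted p under 0.05 for 4 and 7 members (7.02% and 12.3%), against 8.89% and 24.9% of all genes. The 3 WT comparisons share the WT oil arrays. Between Arih1 A_52_P67444 readings after BP and under oil in Cyp1a1-null mice (0.46, 0.72 and 0.95, against 0.60, 0.93 and 1.13) the ranges overlapped, as they did in WT mice.

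**Figure D5:**
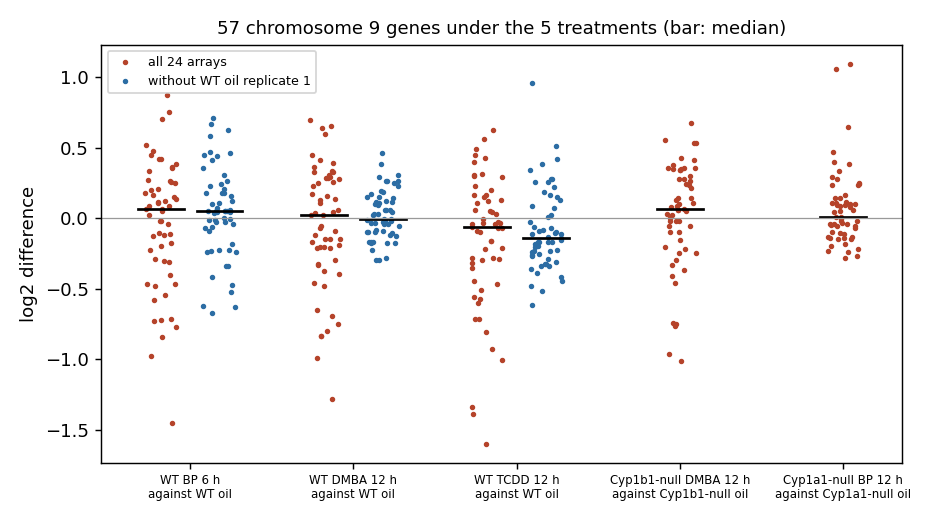
Log2 difference between treated and oil-treated marrow for each of the 57 genes under the 5 treatments, with a bar at the median; for the WT comparisons, values with all arrays (red) stand beside those without WT oil replicate 1 (blue). The medians lie between -0.14 and 0.07.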

How the data were processed

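The deposited scanner files give, per the file headers, intensity values (mean signal and local background) from Agilent Feature Extraction 9.1.3.1 (20 arrays) or 10.7.3.1 (4 arrays); per the labels, the sample was Cy3. The authors' deposited table holds log2 differences between groups, and the submitters' processing notes name limma; its Cyp1a1-null oil column correlated with the same difference here at r = 0.442 over probes, or 0.802 without WT oil replicate 1. Intensities were corrected by normexp (offset 50) and loess within arrays; Cy3 over Cy5 was taken as log2. Outlier-flagged spots were left out. Genes were kept where Cy3 was well above background on at least 3 arrays, and the brightest probe stood for a gene. limma 3.58.1 (R 4.3.3) fitted 10 group means over all arrays; 10 genes had no value on the double-null oil array and were left out of fits needing it. Probes were named by accession, symbol or synonym from RefSeq GRCm38.p6; no build is named for probe positions. Same-numbered replicates did not deviate together (r from -0.23 to 0.34 over 82 pairs), so they were not paired. The fits were run on simulated data with independent noise on each array. That leaves out the correlation within slides, so it does not check the p-values against it. The number of arrays limits the precision. The members, gene lists and probes followed up were chosen with earlier results of these data known. The text names members that passed, up to 8 by adjusted p per comparison, and for Cyp1a1 loss under oil the 10 highest and 10 lowest others.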

Additional observations from a re-analysis of the deposited data

Results flagged for a closer look

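For 3 of the 57 genes, limma's interaction term between Cyp1a1 loss and Cyp1b1 background under oil passed, adjusted over all genes (2.53% of all genes passed). The oil groups shared no slide and no slide block was fitted. A genotype effect that differs by background and a difference between slides therefore cannot be told apart here. The log2 difference of double-null over Cyp1b1-null oil minus that of Cyp1a1-null over WT oil was -3.79 ± 0.48 for Crabp1 (SE, adjusted p = 0.000489), -1.18 ± 0.29 for Ubl7, a ubiquitin-like protein (adjusted p = 0.0428), and -0.90 ± 0.21 for Mpi (adjusted p = 0.0356). All 3 rest on the single double-null oil array. On that array Crabp1 was not well above background, so its difference and p are fitted to a value at the floor. Without WT oil replicate 1 the same 3 differences were -3.95, -0.94 and -0.79, and 8 members passed, against 9.72% of all genes.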

How the results depend on the processing

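Counts of the 57 genes past the threshold depended on the processing. The share of all genes that passed also moved with the setting. For Cyp1a1-null against Cyp1b1-null oil it was 5.04% with all arrays and 21.8% without WT oil replicate 1. The counts below, given without such shares, are therefore no result about the members. For Cyp1a1 loss under oil (2 with all arrays) the count was 1 with no background subtraction, with the scanner's processed signals, with Cy3 alone, with a filter of 12 arrays above background, and with slide as a random block without WT oil replicate 1. It was 0 with slide as a random block, with the Feature Extraction version as a term, or with only the groups compared. For all Cyp1a1-deficient groups (5) it was 1 with no background subtraction, with processed signals, and with slide as a block without WT oil replicate 1, 10 with Cy3 alone, 2 with the Feature Extraction version and 0 with slide as a block. For Cyp1a1-null against WT oil (1) it was 3 with Cy3 alone or the mean of all probes, and 0 with no background subtraction, processed signals, slide as a block with or without WT oil replicate 1, or only the groups compared. For Cyp1a1-null against Cyp1b1-null oil (2) it was 1 with processed signals, 29 with only the groups compared, and 0 with slide as a block or the Feature Extraction version. For Cyp1b1 loss (4) it was 1 with no background subtraction, Cy3 alone or the replicate block, 2 with processed signals, and 0 with slide as a block with or without WT oil replicate 1, the Feature Extraction version, or only the groups compared. For double-null against Cyp1a1-null BP (0) it was 1 with Cy3 alone and 2 with the Feature Extraction version. In fits of single probes, a unit adopted after the data were seen, probes of the 57 genes that separated all Cyp1a1-deficient arrays (2) numbered 1 with no background subtraction or processed signals (Glce) and 1 with Cy3 alone (Anp32a). Snapc5 under oil reversed to 0.024 with Cy3 alone (adjusted p = 0.985). Leaving out 1 array gave counts of 1 to 3, 2 to 12, 0 to 15, 0 to 19, 0 to 15 and 0 to 2 in the same order of comparisons; for the treatments they were 0 to 6 (WT BP), 0 to 5 (WT DMBA), 0 to 13 (WT TCDD), 0 to 4 (Cyp1b1-null DMBA) and 0 to 4 (Cyp1a1-null BP). The cause was not tested for any of these. The replicate number as a block gave 2, 4, 1, 2, 1 and 0 genes in the same order of comparisons. The precision is limited by 1 double-null oil array, other groups of 2 or 3 arrays, and dim probes such as that of Glce, above background on 10 arrays.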
